A study of Homo sapiens with 6 samples.

Results

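The data described here are the expression state of RD18 cells in which miR-22 had not been induced. RD18 is an established cell line from embryonal rhabdomyosarcoma, a tumour of soft tissue whose cells resemble immature skeletal muscle. Of the 6 arrays of the series, the 4 without induced miR-22 were used, chosen by their titles. They comprised 2 arrays of untreated RD18 NpBI-22 cells, described in the series as biological replicates, 1 array of untreated RD18 NpBI-206AS cells and 1 array of RD18 NpBI-206AS cells given doxycycline at 1 ug/ml for 6 days. NpBI-22 cells carry the inducible miR-22 construct, here left off. What the NpBI-206AS construct makes after doxycycline is not explained in the labels, so its treated array holds doxycycline and any construct product together. The labels do not say whether either line is a single clone. Total RNA was read on Affymetrix Human Gene ST arrays, which sample each transcript with several probes.

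Embryonal rhabdomyosarcoma is diagnosed by proteins of the skeletal muscle lineage. In normal myogenesis PAX3 and PAX7 mark progenitors, the basic helix-loop-helix factors MYF5 and MYOD1 commit them, and MYOG with MEF2 factors switches on contractile genes as cells leave the cell cycle. In this tumour the factors are present while the cells keep dividing, and signalling through RAS, FGFR4 and the IGF axis is known to feed that growth.

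Levels are the deposited log2 values. They are given below in a fixed order: NpBI-22 replicate 1, NpBI-22 replicate 2, untreated NpBI-206AS and doxycycline-treated NpBI-206AS. The rank of a gene is the percentage of the 18417 genes with a row of their own whose mean over the 4 arrays was lower. Probe sets differ in response, so a rank is a place in the signal distribution and not an amount of RNA. The table has no detection calls. A background level was therefore taken from 341 olfactory receptor genes, which most tissues do not transcribe: their 95th percentile was 4.93, 4.97, 4.72 and 4.93 on the 4 arrays. A gene is called above background here where it exceeded that value on all 4 arrays, which held for 12689 of 18417 genes, or 68.9%.

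NpBI-22 replicate 1 stood apart from the other 3 arrays. Over genes it correlated with them at 0.985 to 0.988, against 0.995 to 0.996 among the other 3. Its array code begins with R509 and the other codes with R587, with no explanation of the prefix in the labels. A range of at least 1 between the highest and lowest log2 level, that is at least 2-fold, was found for 477 of 18417 genes, or 2.59%. Replicate 1 was at one end of that range for 424 of the 477. Untreated NpBI-206AS was at an end for 276, treated NpBI-206AS for 173 and NpBI-22 replicate 2 for 81. Only 93 genes, 0.505%, had such a range over the 3 arrays other than replicate 1. For all genes and for the muscle differentiation genes, the count with such a range is given with and without replicate 1. Other counts include replicate 1 unless stated.

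The highest signal belonged to genes that every cell uses. GAPDH, a glycolytic enzyme, led at 13.66, followed by FAF2, the translation factor EEF1A1, RPL5, the chaperone HSPA8 and ACTB. Of the 100 highest genes, 20 encode ribosomal proteins and 2 were on the list of muscle differentiation genes. FAF2 owes its place to 1 of its 2 rows, which read 13.50 while the other read 9.70.

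Muscle identity was present in the transcription factors. MYOD1, which commits cells to the muscle lineage, read 9.22, 9.74, 9.37 and 9.32, with 91.1% of genes lower. The 4 arrays lay within 0.52, and the lines overlapped. MYOG, which drives terminal differentiation, read 9.79, 10.11, 8.86 and 8.57, with 90.4% of genes lower. Both NpBI-22 arrays lay above both NpBI-206AS arrays. MYF5, the earliest of these factors, read between 3.88 and 3.91, and MYF6, which acts late in fibres, between 4.21 and 4.46. Neither exceeded background on any array.

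The progenitor factors lay nearer the middle of the distribution. PAX3 averaged 7.36 and PAX7 6.93, each above background on all 4 arrays and each within 0.36 over them. SIX4 at 9.36 and its cofactors EYA4 at 9.14 and EYA1 at 9.08, which act upstream of the myogenic factors, ranked higher. Among partners of MYOD1, the E protein TCF12 averaged 9.80. MEF2C, a cofactor of MYOG, read 8.48, 8.47, 7.29 and 7.35, so the lines did not overlap. MEF2A averaged 8.11 and MEF2D 7.97.

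All 15 listed inhibitors of myogenic factors were above background, and 4 were among the 10% highest genes. HEY1, a Notch effector that represses myogenic factors, read 10.30, 10.77, 10.73 and 10.75 and ranked above MYOD1 and MYOG. MSTN, the secreted inhibitor of muscle growth, read 9.68, 10.51, 9.44 and 10.05. SNAI2, a repressor that competes with MYOD1 at E-boxes, read 9.20, 9.81, 10.14 and 9.85. MSC, a repressive relative of the myogenic factors, lay between 9.47 and 9.68. In all, 35 of 39 measured myogenic regulators were above background, 89.7% against 68.9% of all genes.

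**Figure D1:**
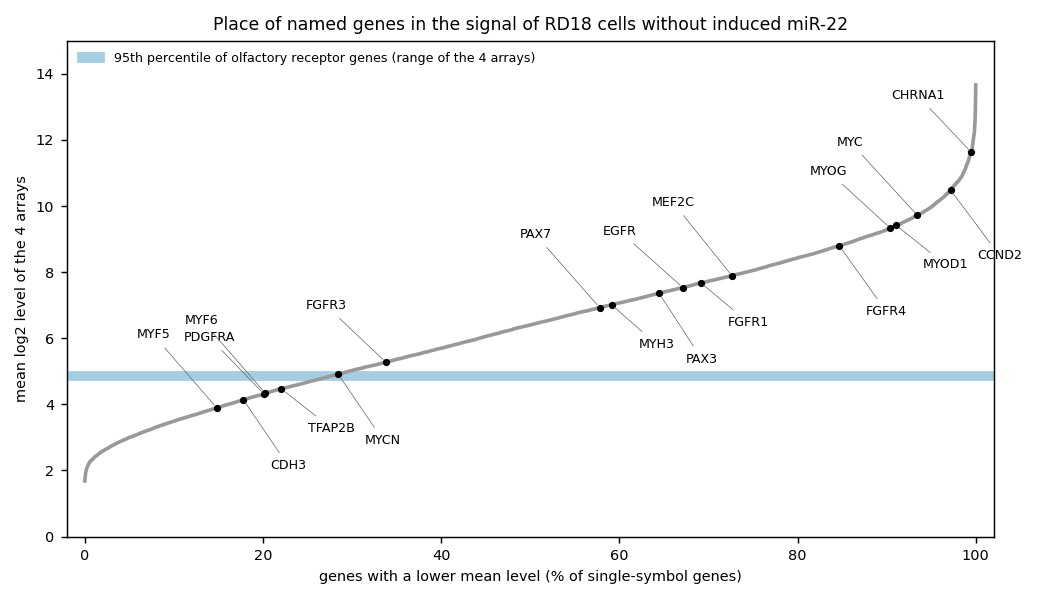
Mean log2 level of all 18417 genes over the 4 arrays, ordered by rank on the horizontal axis, with named genes as points and the range of the background level as a band. MYOD1, MYOG and MYC lie above 90.4% of genes or more, while MYF5, MYF6 and PDGFRA lie under the band.

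The share of muscle differentiation genes above background was close to that of all genes. Of the 20 gene lists read, this list had the largest share of genes with a wide range. Of 71 measured genes, 52 were above background, 73.2% against 68.9% of all genes, and 10 were among the 10% highest. A range of at least 1 was found for 23 of the 71, or 32.4%, against 2.59% of all genes. Without NpBI-22 replicate 1 this was 18, or 25.4%, against 0.505%. In 20 of the 23 genes both NpBI-22 arrays lay above both NpBI-206AS arrays, and in 3 the lines overlapped. Of all 477 genes with such a range, NpBI-22 was higher in 110, 23.1%, and NpBI-206AS in 159, 33.3%.

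Of 25 membrane and signalling genes of the muscle cell, 22 were above background, 88.0% against 68.9% of all genes. Their median range was 0.56, against 0.35 for all genes. CHRNA1, a subunit of the acetylcholine receptor, read 11.52, 11.73, 11.48 and 11.79, with 99.5% of genes lower. CHRND, another subunit, read 9.33, 10.05, 9.35 and 9.45. The fetal subunit CHRNG averaged 8.36 and the adult subunit CHRNE 5.23. CDH2, N-cadherin, lay between 10.80 and 10.99. Of the further marker genes, DES, the muscle intermediate filament, averaged 9.08, NCAM1 8.56 and CDH15, M-cadherin, 8.07. All 3 were above background on every array.

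Contractile genes read at different levels between isoforms, and levels of different rows cannot be read as a ratio. ACTC1, the cardiac actin that embryonic skeletal muscle also uses, read 12.13, 12.20, 11.30 and 11.19 and was the highest muscle gene. ACTA1, the actin of mature skeletal muscle, lay between 7.50 and 7.82. TPM2 averaged 10.89 and TNNT1, slow troponin T, 10.27. All 11 thin-filament genes and 6 of 13 myosin genes, 46.2%, were above background, where 68.9% of all genes were.

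Among the myosins, the embryonic heavy chain MYH3 read 8.02, 7.69, 6.40 and 5.95. The perinatal chain MYH8 read 5.88, 5.44, 4.52 and 3.81, above background on the 2 NpBI-22 arrays alone. The adult fast chains MYH1, MYH2 and MYH4 averaged 2.66, 4.68 and 3.13, and none of them was above background on all 4 arrays. The light chains MYL1 and MYL11 averaged 9.29 and 8.54. MYL1 read 10.09, 10.02, 8.51 and 8.55, and MYL11 9.28, 9.39, 7.86 and 7.62, so neither overlapped between the lines.

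Of 14 scaffold and Z-disc genes, 8 had a range of at least 1, against 2.59% of all genes. TTN, the spring of the sarcomere, read 7.56, 8.28, 6.43 and 6.15. Among genes of other muscle roles, CKM, muscle creatine kinase, read 7.03, 7.20, 5.90 and 5.29. MYMK, which fuses myoblasts, read 7.32, 8.07, 6.88 and 6.41. For each of these 3 the lines did not overlap.

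**Figure D2:**
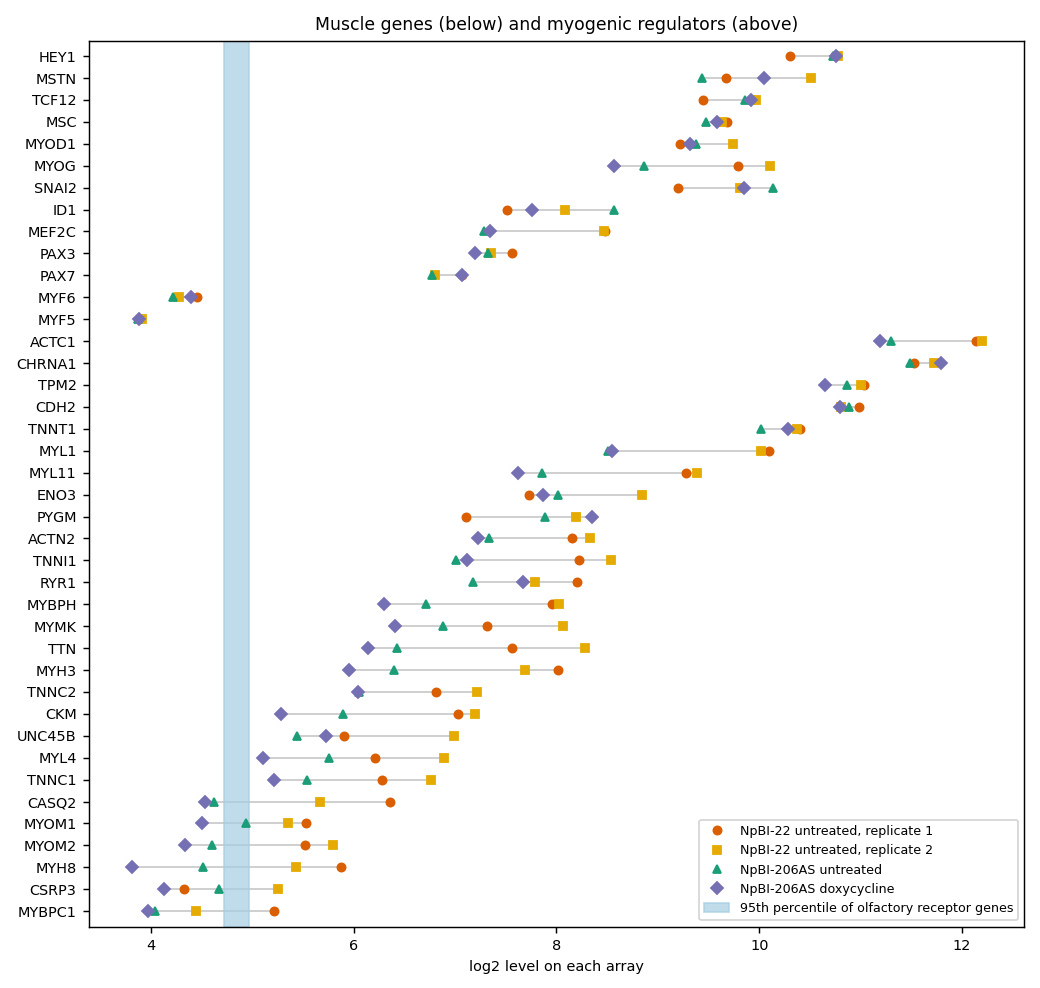
Log2 level on each of the 4 arrays for muscle differentiation genes that were high or had a range of at least 1, below, and for myogenic regulators, above; each row is a gene, symbols mark arrays, and the band is the range of the background level. MYH3, TTN and MYL11 separate the 2 NpBI-22 arrays from the 2 NpBI-206AS arrays, while CHRNA1 and MYOD1 do not.

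The promoters of 4 muscle genes are shown because myogenic factors and MEF2 are known to read short motifs in such sequences. CHRNA1 and CKM carry the E-box CAGCTG, and TTN and MYH8 a MEF2 site. The sequences run from 250 bases before to 50 bases after the gene's start and come from RefSeq, assembly GRCh38.p14. They are written 5′ to 3′ on the gene's strand with the motif in capitals. These 4 were chosen after the values were seen and because they hold a motif. The MYOG promoter, also searched, holds no exact match to CAGCTG or to the MEF2 pattern used in this window and is not shown. It does hold 1 match to the general E-box form CANNTG. The search counts exact matches only, so it does not show that MYOG lacks a MEF2 site. The stretch ctatatttat in that promoter was not counted.
CHRNA1 promoter, chr2:174764423-174764722, minus strand: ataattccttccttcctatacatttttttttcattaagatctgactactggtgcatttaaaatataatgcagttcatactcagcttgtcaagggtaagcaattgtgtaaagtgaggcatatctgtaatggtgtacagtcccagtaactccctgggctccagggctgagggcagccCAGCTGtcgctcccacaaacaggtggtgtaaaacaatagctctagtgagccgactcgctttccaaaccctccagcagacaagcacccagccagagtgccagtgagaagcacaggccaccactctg
CKM promoter, chr19:45322826-45323125, minus strand: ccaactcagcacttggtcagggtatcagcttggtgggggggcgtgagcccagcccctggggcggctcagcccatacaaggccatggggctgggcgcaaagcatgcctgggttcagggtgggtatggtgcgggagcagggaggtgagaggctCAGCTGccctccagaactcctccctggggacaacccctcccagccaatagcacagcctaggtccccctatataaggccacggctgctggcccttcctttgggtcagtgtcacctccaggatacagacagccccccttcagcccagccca
TTN promoter, chr2:178807374-178807673, minus strand: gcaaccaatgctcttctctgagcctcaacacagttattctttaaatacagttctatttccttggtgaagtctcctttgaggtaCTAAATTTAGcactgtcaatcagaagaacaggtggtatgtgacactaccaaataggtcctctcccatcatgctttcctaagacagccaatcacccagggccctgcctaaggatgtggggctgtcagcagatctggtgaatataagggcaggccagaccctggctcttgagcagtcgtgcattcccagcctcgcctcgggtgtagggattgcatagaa
MYH8 promoter, chr17:10421901-10422200, minus strand: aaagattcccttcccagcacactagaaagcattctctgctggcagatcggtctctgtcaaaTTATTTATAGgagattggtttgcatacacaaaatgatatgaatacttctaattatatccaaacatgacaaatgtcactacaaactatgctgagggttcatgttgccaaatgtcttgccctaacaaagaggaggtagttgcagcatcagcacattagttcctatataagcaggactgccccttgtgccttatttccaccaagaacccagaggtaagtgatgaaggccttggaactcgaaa

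The E-box of CHRNA1 begins at position -75 and that of CKM at -99 from the start. The MEF2 site begins at -167 in TTN and at -189 in MYH8. RefSeq promoters were matched for 46 of the 71 measured muscle genes, as 64 sequences. CAGCTG, which reads the same on both strands, was in 23 of them, 35.9%, against 17.9% of all 35116 promoters of that length. It is one form of the general E-box CANNTG, which was in 75.0% against 68.7%. The MEF2 site, searched on both strands, was in 11 of the 64, 17.2%, against 1.86%. A match is a stretch of letters and shows no binding. For muscle genes with a range of at least 1, 18 promoters were matched. Of these, 7 held CAGCTG, 38.9%, and 4 the MEF2 site, 22.2%. Whether a motif goes with the spread over the arrays was not tested.

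The difference between the lines was fitted for all 33297 rows with limma, with NpBI-22 as 2 arrays against NpBI-206AS as 2 arrays. No row passed a Benjamini-Hochberg adjusted p of 0.05 in either direction, 0%, and 1766 rows, 5.3%, had an unadjusted p under 0.05. An exact permutation test of 2 arrays against 2 cannot go below 0.333. In simulated data of this design, 67 rows were shifted by each known amount. The fit recovered 0% of shifts of 1 and 58.2% of shifts of 2 on the log2 scale. A difference of such size that did not pass is therefore not shown to be absent. MYH3 read 1.68 higher in NpBI-22 on the log2 scale (SE 0.21; limma Benjamini-Hochberg adjusted p = 0.714). The difference was 1.59 for MYL11 (SE 0.15; limma adjusted p = 0.602) and 1.23 for MYOG (SE 0.19; limma adjusted p = 0.783). MYOD1 differed by 0.13 (SE 0.21).

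None of these differences passed the test. Of 71 muscle genes, 44 had both NpBI-22 arrays above both NpBI-206AS arrays, against 20.7% of all genes, and 1, JSRP1, the reverse, against 16.6%. An unadjusted limma p under 0.05 with NpBI-22 higher was given to 25 of the 71, against 1.86% of all genes, and with NpBI-206AS higher to 0, against 1.82%. The median difference was 0.30, against 0.02 for all genes. The 71 genes were read on the same 4 arrays and are not replicates of a line. Their list was chosen with earlier results of these data known. These counts therefore describe the arrays and do not test a difference between the lines. Other lists also had more genes with NpBI-22 higher than the reverse: 32 against 9 of the 74 markers of other cell types (median difference 0.14), 109 against 20 of the 341 olfactory receptor genes (median 0.11), 16 against 3 of 42 collagens and 15 against 3 of 39 myogenic regulators. The muscle list's median level was 6.90, 7.13, 6.42 and 6.16 on the 4 arrays. Between the untreated arrays that share the R587 prefix, NpBI-22 replicate 2 and untreated NpBI-206AS, the median difference was 0.42. Between these arrays 14 of the 71 genes read at least 2-fold higher in NpBI-22, against 0.201% of all genes, or 37, and 0 at least 2-fold higher in NpBI-206AS, against 0.103%. Doxycycline-treated minus untreated NpBI-206AS gave a median of -0.01. By role within the list this median ran from -0.12 for metabolism genes to 0.13 for membrane and signalling genes. The R509 prefix occurs in NpBI-22 alone, so prefix and line are partly mixed.

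Other genes with a wide spread moved beside them. GPC3, a proteoglycan of embryonic tissue, read 7.09, 6.60, 5.44 and 4.92, and ANKRD1, a stress-responsive muscle protein, 9.80, 9.58, 8.50 and 7.57. In the other direction the transporter SLC6A15 read 6.10, 7.01, 8.21 and 7.76 and the kinase AK5 6.44, 7.13, 8.37 and 7.95. The neurofilament genes NEFL (8.82, 7.80, 7.38 and 6.66) and NEFM (7.76, 7.30, 7.08 and 6.18) were higher in NpBI-22, while the 11 measured neural markers had medians of 4.91, 5.56, 5.33 and 5.10. Their part in the muscle difference was not tested.

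**Figure D3:**
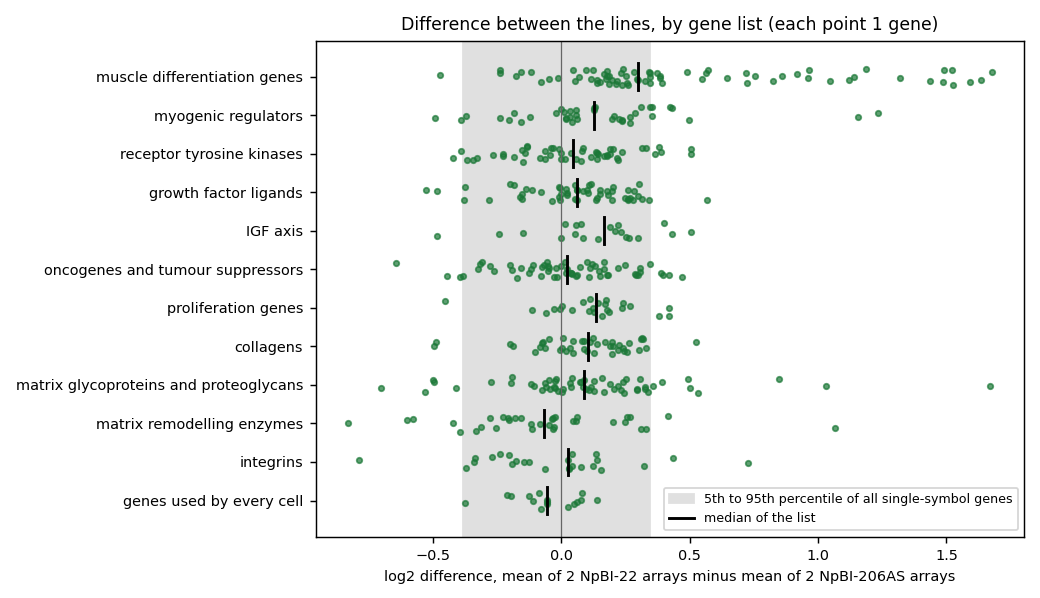
Difference in log2 level between the mean of the 2 NpBI-22 arrays and the mean of the 2 NpBI-206AS arrays, by gene list; each point is a gene, the black bar the list's median, and the grey band the 5th to 95th percentile of all genes. The muscle differentiation genes have a median of 0.30 and a tail to 1.68 for MYH3, and the other plotted lists have medians of 0.17 or less.

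Receptor tyrosine kinases carry growth signals into the cell. Of 50 measured receptors, 31 were above background, 62.0% against 68.9% of all genes. None had a range of at least 1, against 2.59% of all genes, and their median range was 0.41, against 0.35 for all genes. DDR2, a receptor for fibrillar collagen, was highest and read 9.48, 9.77, 9.59 and 9.82. The Wnt co-receptor RYK averaged 9.52 and EPHA7, an ephrin receptor, 9.16. MUSK, the agrin-activated receptor of the neuromuscular junction, read 8.83, 9.48, 8.80 and 9.15. MET, the HGF receptor, read 8.58, 8.71, 9.11 and 8.96. DDR2 has a second row, which averaged 8.42.

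FGFR4 was the highest of the FGF receptors and is frequently active in rhabdomyosarcoma. It read 8.71, 8.80, 8.69 and 8.95, with 84.7% of genes lower and no separation of the lines. FGFR1 read 8.17, 7.55, 7.33 and 7.64, highest on NpBI-22 replicate 1. FGFR3 lay between 5.07 and 5.39, just over background. FGFR2 lay between 3.87 and 4.29 and was not above background on any array.

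In the EGF receptor family EGFR averaged 7.53, ERBB2 6.99 and ERBB3 6.85, all above background. ERBB4 read 4.56, 4.33, 4.49 and 5.24 and exceeded background on the doxycycline-treated array alone. PDGFRB averaged 5.97, and PDGFRA, at 4.32, was not above background. KIT read between 3.12 and 3.22.

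**Figure D4:**
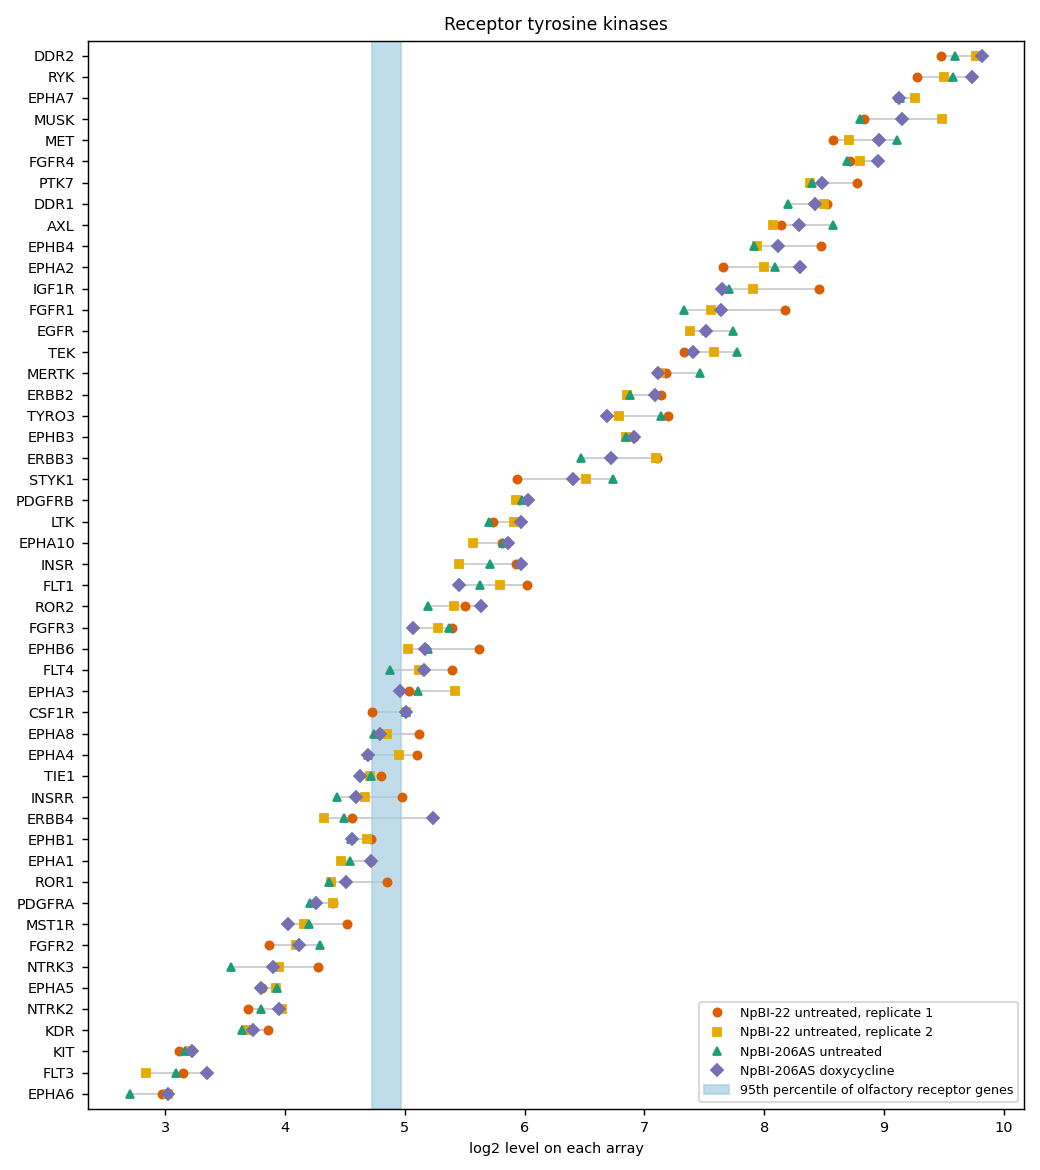
Log2 level of the 50 measured receptor tyrosine kinases on each of the 4 arrays; symbols mark arrays and the band is the range of the background level. DDR2, RYK, EPHA7, MUSK, MET and FGFR4 lead, and 14 receptors were below background on every array.

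Of 53 measured growth factor ligands, 29 were above background, 54.7% against 68.9%. MDK, midkine, was highest and read 9.51, 9.47, 9.47 and 9.83. The VEGF and PDGF relatives PGF, VEGFC, VEGFB and PDGFC averaged between 8.55 and 8.62. PDGFA read 8.65, 8.14, 7.94 and 7.72, the widest range of the list. Ligands of the leading receptors were mixed: FGF2 averaged 7.65, while HGF, the ligand of MET, read between 4.49 and 4.54 and was not above background.

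Of 20 measured members of the IGF axis, 16 were above background, 80.0% against 68.9% of all genes, and none had a range of at least 1, against 2.59%. IGF2, the tumour's characteristic growth factor, shares its row with INS, so no level is given for it. IGF1 averaged 3.42 and was not above background. IGF2R, which clears IGF2, averaged 9.72. IGF1R, the signalling receptor, read 8.46, 7.91, 7.71 and 7.65, with the lines apart (difference 0.50, SE 0.21; limma adjusted p = 0.783). A second IGF1R row read 7.69, 7.77, 7.42 and 7.29, with the lines apart but NpBI-22 replicate 1 not highest. The fetal mRNA-binding proteins IGF2BP1, IGF2BP3 and IGF2BP2 averaged 10.02, 9.59 and 8.73. Of 7 IGF binding proteins 6 were above background, from IGFBP4 at 6.91 to IGFBP5 at 5.27, and IGFBP7, at 4.89, exceeded it on 1 array.

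Of 59 measured oncogenes and tumour suppressors, 57 were above background, 96.6% against 68.9%. MYC, the growth-promoting transcription factor, read 9.35, 9.78, 9.99 and 9.76, with 93.4% of genes lower. Its arrays lay within 0.64 and the lines overlapped. MYCL averaged 7.21, and MYCN 4.90, above background on 3 arrays. Of 9 measured genes of the MYC family and its partners, 8 were above background on all 4 arrays. CTNNB1, beta-catenin, averaged 11.31, and the RAS-pathway phosphatase PTPN11 10.61. Among RAS genes with a row of their own, HRAS averaged 8.20, RRAS 8.06, RRAS2 8.02 and MRAS 6.22.

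Kinases and cyclins of cell-cycle entry ranked high. CDK6 averaged 11.05 and CDK4 10.78, each within 0.13 over the arrays. CCND2 read 11.04, 10.18, 10.13 and 10.59, and CCND1 7.83, 8.46, 8.91 and 8.66. The cell-cycle inhibitor CDKN1A read 6.49, 7.32, 7.02 and 7.58. CCND1 and CDKN1A were the 2 genes of the list with a range of at least 1, and neither kept it without NpBI-22 replicate 1.

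All 24 proliferation genes were above background, where 68.9% of all genes were, and 18 were among the 10% highest genes. CCNB1, the mitotic cyclin, read 11.43, 11.39, 11.38 and 11.10, and TOP2A, which untangles chromosomes, averaged 10.65. The list's median was 9.81, 9.83, 9.85 and 9.49, lowest on the doxycycline-treated array. CDK1 read 8.26, 9.36, 9.47 and 9.05, with NpBI-22 replicate 1 lowest. High proliferation genes and MYOG were thus read in the same RNA, and an array of bulk RNA cannot tell whether they came from the same cells. In such RNA fewer expressing cells and less RNA per cell cannot be told apart.

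Markers that separate fusion-negative from fusion-positive rhabdomyosarcoma were also read. Of 3 listed fusion-negative markers, 2 had a row of their own. These were EGFR and FBN2, which averaged 7.53 and 7.11, with 67.1% and 60.7% of genes lower. Both were above background, as were 68.9% of all genes. The fusion-positive markers TFAP2B, CDH3 and NOS1 averaged 4.47, 4.13 and 4.10 and were not. OLIG2, another of that group, read 5.20, 5.02, 4.98 and 4.90, above background on 3 arrays.

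Collagens form the fibres and sheets of the matrix. Of 42 measured collagens, 31 were above background, 73.8% against 68.9%, and none had a range of at least 1, against 2.59%. All 11 fibrillar chains were above background, with a median level of 6.60 against 6.40 for all genes, and 5 of 11 network and basement membrane chains, with a median of 4.73. COL3A1 read 11.85, 11.68, 11.57 and 11.86, with 99.6% of genes lower. COL5A2 averaged 9.97 and COL1A1 9.79. COL1A2, the partner chain of COL1A1 in type I collagen, averaged 5.52, with 37.4% of genes lower. COL4A1 and COL4A2, the common basement membrane pair, averaged 8.91 and 8.41. COL6A1 and COL6A2 averaged 8.24 and 7.80, while their partner COL6A3 averaged 4.46 and was not above background. Levels of different rows cannot be read as a ratio of chains.

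Among 57 measured glycoproteins and proteoglycans, 44 were above background, 77.2% against 68.9% of all genes, with 9 of 18 for the proteoglycans. SPARC, a collagen-binding matricellular protein, averaged 11.59. The laminin chains LAMC1 and LAMB1 averaged 11.32 and 11.19, each within 0.24 over the arrays. TNC, tenascin C, averaged 10.92, and FN1, fibronectin, read 11.45, 10.73, 10.47 and 10.64. LAMA2, the laminin chain of muscle, averaged 9.02. LAMA4 read 8.95, 8.51, 7.59 and 7.80, with the lines apart. POSTN averaged 3.20 and DCN 4.42, and neither was above background.

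Enzymes that build and cut the matrix were above background in 28 of 34 cases, 82.4% against 68.9% of all genes, with 10 among the 10% highest genes. P4HB and P4HA1, which hydroxylate collagen, averaged 11.08 and 10.39. LOX, which crosslinks it, read 8.44, 8.60, 9.57 and 9.13, higher in NpBI-206AS (difference -0.83, SE 0.19; limma adjusted p = 0.783). PLAT and PLAU, the plasminogen activators, averaged 10.70 and 10.56, and the inhibitor TIMP1 10.66. ADAMTS5 read 8.10, 8.04, 6.97 and 7.04, with the lines apart. MMP1, MMP3, MMP7, MMP9 and MMP10 were not above background on any array.

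Of 25 integrin chains, 14 were above background, 56.0% against 68.9% of all genes. ITGAV averaged 9.82, the laminin receptor chain ITGA6 9.62, ITGA4 9.59 and the common beta chain ITGB1 9.26. ITGB8 read 7.21, 7.87, 8.98 and 7.67, and ITGB6 5.46, 6.69, 5.66 and 5.04. Each of these beta chains stood highest on a different array, and the lines overlapped.

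**Figure D5:**
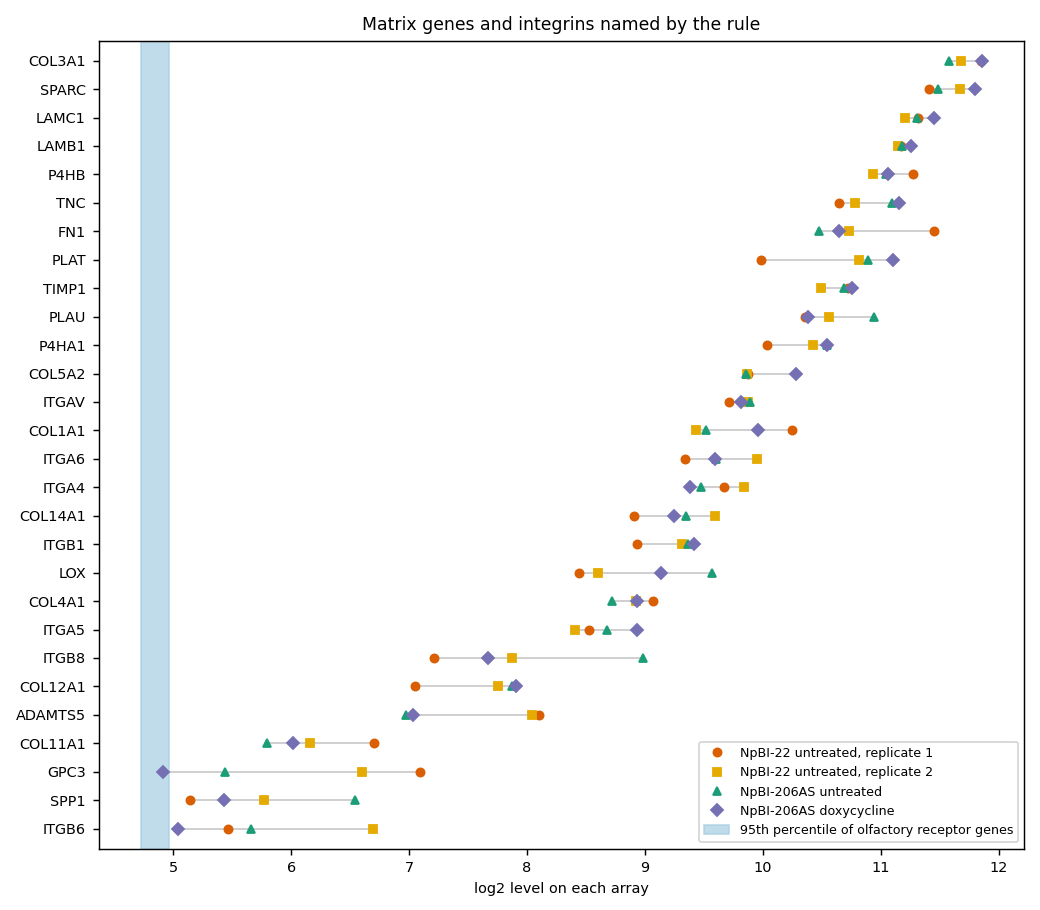
Log2 level on each of the 4 arrays for the matrix genes and integrins that led their lists in level or range; symbols mark arrays and the band is the range of the background level. COL3A1, SPARC, LAMC1 and LAMB1 lie together on all 4 arrays, while GPC3, ITGB8 and ITGB6 spread over more than 1.

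Markers of other cell types were mostly low. Of 74 measured, 27 were above background, 36.5% against 68.9%, and 1, the keratin KRT18, was among the 10% highest genes. The count was 2 of 12 for blood, 4 of 11 for endothelium, 5 of 11 for epithelium, 5 of 11 for neural cells, 6 of 11 for fibroblasts and smooth muscle, 4 of 10 for cardiac muscle and 1 of 8 for liver. KRT18 averaged 10.14 on one row and 9.20 on the other, and its usual partner KRT8 averaged 6.73. THY1, a fibroblast and neural surface protein, averaged 8.64. NKX2-5 averaged 7.07 and TNNI3 5.55 among the cardiac markers. All 16 measured genes used by every cell were above background.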

How the data were processed

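Total RNA was labelled and hybridised to 1 array per culture, and 4 of the 6 arrays are used here. The authors deposited log2 values; the tools named are RMA and Partek, per the submitters' processing notes. The genome build was not given in the sources used here, nor were parameters or the chip library file. RMA gives all arrays nearly 1 distribution, so a shift shared by every transcript is hidden. The table holds 33297 rows. Through the platform annotation 19460 rows had a single symbol, of which 19429 had their gene ID in the RefSeq gene table (GRCh38.p14), 1754 had several and 12083 none; no gene was named from the last 2 kinds. The 19460 rows cover 18417 genes. For the 769 genes with more than 1 row, the row with the highest mean over the 4 arrays was used. The listed symbol MYLPF was read as MYL11.

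Arrays were grouped by title. Levels, ranges and counts are descriptions, and the number of arrays limits their precision. The difference between the lines was fitted with limma 3.58.1 in R 4.3.3 (lmFit and eBayes, two-sided, Benjamini-Hochberg over all rows, threshold 0.05; 2 residual and 3.27 prior degrees of freedom), after the scripts were tested on simulated data. NpBI-206AS had 1 array per condition, so line and doxycycline are partly mixed. Where no label says otherwise, p-values measure the spread between these arrays. Tables were handled in Python 3.11.15.

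The 20 gene lists and the members were chosen with earlier results of these data known. Named were the marker genes, the 5 highest and the 2 of largest range in each list (the 3 highest for other cell types and genes used by every cell), the families of MYF5, FGFR4, MYC and RAS, PAX3, PAX7 and the subtype markers, and the 15 highest and 10 of largest range of all genes. Also named were the 5 largest differences each way between lines among genes with an unadjusted limma p under 0.05. Further genes were named for their role after their values were seen. Alternatives covered the background level, the row of a gene, the scaling, each array left out, and the terms of the fit. Listed genes without a row of their own are not analysed here.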

Additional observations from a re-analysis of the deposited data

Results flagged for a closer look

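The 4 arrays were read as 1 set, and a gene is given here where its most extreme array was far from the other 3 relative to the gene's whole range (the gap to the nearest other array over the whole range, above Dixon's 95% critical value). Such a rule marks about 1 in 20 sets by chance. It marked 9 of the 144 named genes, 6.25%, and 1537 of all 18417 genes, 8.35%, of which 1030 had NpBI-22 replicate 1 as the extreme array.

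Among the 9 named genes, NpBI-22 replicate 1 was the extreme array for 3. GRB10, an adaptor of the insulin and IGF receptors, read 9.22 there against 8.63 to 8.67 elsewhere. SMTN, smoothelin, read 6.50 against 6.25 to 6.29, and HEY1 was low at 10.30 against 10.73 to 10.77. The doxycycline-treated NpBI-206AS array was extreme for 4. COL5A2 read 10.28 there against 9.86 to 9.87, and MDK 9.83 against 9.47 to 9.51. CCNB1 was low at 11.10 against 11.38 to 11.43, and HSP90AB1 was low at 12.61 against 12.75 to 12.78. EPHA7 was highest on NpBI-22 replicate 2, at 9.26 against 9.12 to 9.14. ACTB was highest on untreated NpBI-206AS, at 13.24 against 13.12 to 13.13.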

How the results depend on the processing

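Of 1296 alternative values for the 144 named genes, 1291 moved by less than the standard deviation over the 4 arrays. Leaving out 1 array cannot move a mean that far, and the choice of row matters only for genes with several rows. Many of these values could therefore not move, and their number is no measure of stability. The other 5 came from averaging all rows of a gene and gave 9.04 for DDR2, 11.60 for FAF2, 9.67 for KRT18, 9.76 for PTMA and 11.23 for RPL5. The count of genes above background was 10861 with the 99th percentile of olfactory receptors and 8598 with the median of all genes as the reference. With that median the list counts became 32 for muscle differentiation genes, 20 for receptor tyrosine kinases, 16 for ligands, 10 for the IGF axis, 17 for collagens and 9 for integrins. Among other cell types they became 0 for blood and for liver, and 1 each for endothelium, epithelium, neural cells, fibroblasts and smooth muscle, and cardiac muscle. With the 99th percentile, cardiac muscle had 1 and liver 0. With each array left out in turn blood had 2 to 4, the 4 without the treated NpBI-206AS array. The count of genes with a range of at least 1 lay between 93 (without NpBI-22 replicate 1) and 430 with each array left out in turn, and was 312 without untreated NpBI-206AS; for muscle differentiation genes it lay between 16 and 22. Genes with NpBI-22 above NpBI-206AS on every array numbered 6017 to 8378 with 1 array left out, where fewer arrays have to agree. No row passed in the line contrast under limma in any alternative that kept 2 arrays per line without a further term. In these alternatives 733 (without the dimmest 50% of rows) to 1789 (loess scaling) rows had an unadjusted limma p under 0.05. Fits that left 1 array for a line, by omission or through a further term, are not counted here. Centring, quantile and loess scaling moved the median line difference of all genes by at most 0.02. No paired analysis was possible because only the NpBI-22 arrays carry replicate numbers and NpBI-206AS has 1 array per condition. Array signal over background, and 4 arrays in all, limit what can be told at low levels: GAS6 exceeded background by 0.01 and GPC3 missed it on 1 array by 0.01.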

Other observations

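The genes with the widest range over the 4 arrays were not muscle genes alone. IL7R, the interleukin 7 receptor, read 7.17, 6.66, 6.61 and 4.85, with the treated NpBI-206AS array lowest. CCL2, a chemokine that recruits monocytes, read 7.42, 8.47, 9.69 and 8.45, highest on untreated NpBI-206AS. TFPI2, a protease inhibitor of the matrix, read 7.30, 7.90, 9.16 and 6.89. CNIH3, a partner of glutamate receptors, read 6.65, 8.14, 8.73 and 8.10, lowest on NpBI-22 replicate 1. For CCL2 and TFPI2 the peak on untreated NpBI-206AS was set by a single array, with no replicate.

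Genes with an unadjusted limma p under 0.05 were ordered by the difference between the lines. The 5 of them that read lower in NpBI-22 by most included SLC6A15 and AK5. The others were the antisense RNA LIMD1-AS1 (3.39, 3.69, 4.76 and 5.22), ARB2BP (4.49, 4.62, 6.09 and 5.54) and SYTL5 (a difference of -1.37). None passed limma's Benjamini-Hochberg adjustment.

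Rows of the same gene can disagree by more than the arrays do. The 6 rows of PTMA averaged from 5.90 to 12.57, and the 3 rows of RPL5 were 13.21, 12.24 and 8.25. The 3 rows of TUBB held identical values on every array.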
